A study of Rattus norvegicus with 176 samples.

Results

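These results concern livers of rats that had been given the carcinogen DEN and then clofibric acid (CA) and whose titles carry the tag rev, set against livers of rats given DEN with the same tag. The arrays were chosen by their labels: 5 rats with DEN-Clo and rev in the title and no TU tag, written DEN-CA rev here, and 6 rats whose source is DEN:12rev, written DEN rev here. They make 11 of the 176 liver arrays of the series and 11 of its 148 arrays without a TU or PERI tag. All animals were F344 rats, and each array measured total RNA of a liver section. The DEN-CA rev titles give a dose of 5000 ppm and 12 months, and the DEN rev source gives 12 with no unit. The labels do not spell out rev, TU or bis, give no sex or age, and name 5000 ppm CA in the titles of rats without CA too, so that a rat's treatment was read from the DEN-Clo tag of the title in DEN-CA rev and from the source in DEN rev.

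DEN is short for diethylnitrosamine, an alkylating liver carcinogen used in rodents to start tumours. Clofibric acid is a fibrate drug that activates the nuclear receptor PPARalpha. In rodent liver PPARalpha pairs with the receptor RXR and switches on genes of peroxisomal and mitochondrial fatty acid oxidation and of acyl-CoA hydrolysis, and prolonged activation leads to liver enlargement and tumours in rats and mice. Whether such a response disappears after the drug is stopped is the question that the comparison of DEN-CA rev with DEN rev addresses, if rev marks a reversal arm, which the labels do not state. Further groups served for comparison: 5 DEN-CA 12m rats against 5 DEN 12m rats, which carry no rev tag and are called the untagged pair here, and 4 CA rev 18m rats against 3 control rev 18m rats, which had no DEN. The 4 control rev 12m rats had neither agent. No rat was in more than 1 of these groups.

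Signals are the deposited MAS5 values, scaled so that every array had the same median of 99.35. Before scaling, the medians of the 11 arrays lay between 90.8 and 187.2. Correlation of the log2 signals lay between 0.956 and 0.984 within the groups and between 0.946 and 0.984 across them, as a description over probe sets, and no 2 arrays were identical. A difference was called when limma's adjusted p, over 12393 probe sets, was below 0.05. Differences are log2 fold changes of signal plus 25 with their standard error, and 1 unit is a doubling. The labels do not say how the rats were housed or processed, so the p-values measure a spread between arrays. That spread was taken within groups over 148 arrays in 30 groups, not from the 11 arrays alone.

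Rats 4081 and 4084 of DEN rev and rat 4111 of DEN-CA rev stood apart from their groups. Rats 4081 and 4084 had Obp3 signals of 29.5 and 15, against 2320 to 6680 in the other 4 DEN rev rats. Rat 4111 had the highest array median of the 11, and its summed signal of 22 T and NK lymphocyte markers was 15200, against 1800 to 3990 in the other 4 DEN-CA rev rats and 2220 to 4160 in DEN rev. Main counts and many differences are therefore also given without some or all of these rats. In RNA from whole tissue, a change in the share of a cell type and a change in RNA per cell cannot be told apart.

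In all, 15 probe sets differed between DEN-CA rev and DEN rev, 9 higher (0.0726% of those tested) and 6 lower (0.0484%), which together are 0.121%. An unadjusted p below 0.05 was found for 556 probe sets (4.49%). Of the 8742 genes tested, 11 were called (0.126%), and these were 7 higher genes (0.0801%) and 4 lower genes (0.0458%). Without rats 4081 and 4084, 11 probe sets were called, 7 higher and 4 lower (0.0889%), and 10 of them were among the 15. Without rat 4111 there were 12 (0.097%), of which 10 were shared, and without all 3 rats there were 8 (0.0647%), all shared. In the untagged pair, DEN-CA 12m against DEN 12m, 872 probe sets were called (7.04%), 405 higher (3.27%) and 467 lower (3.77%).

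**Figure D1:**
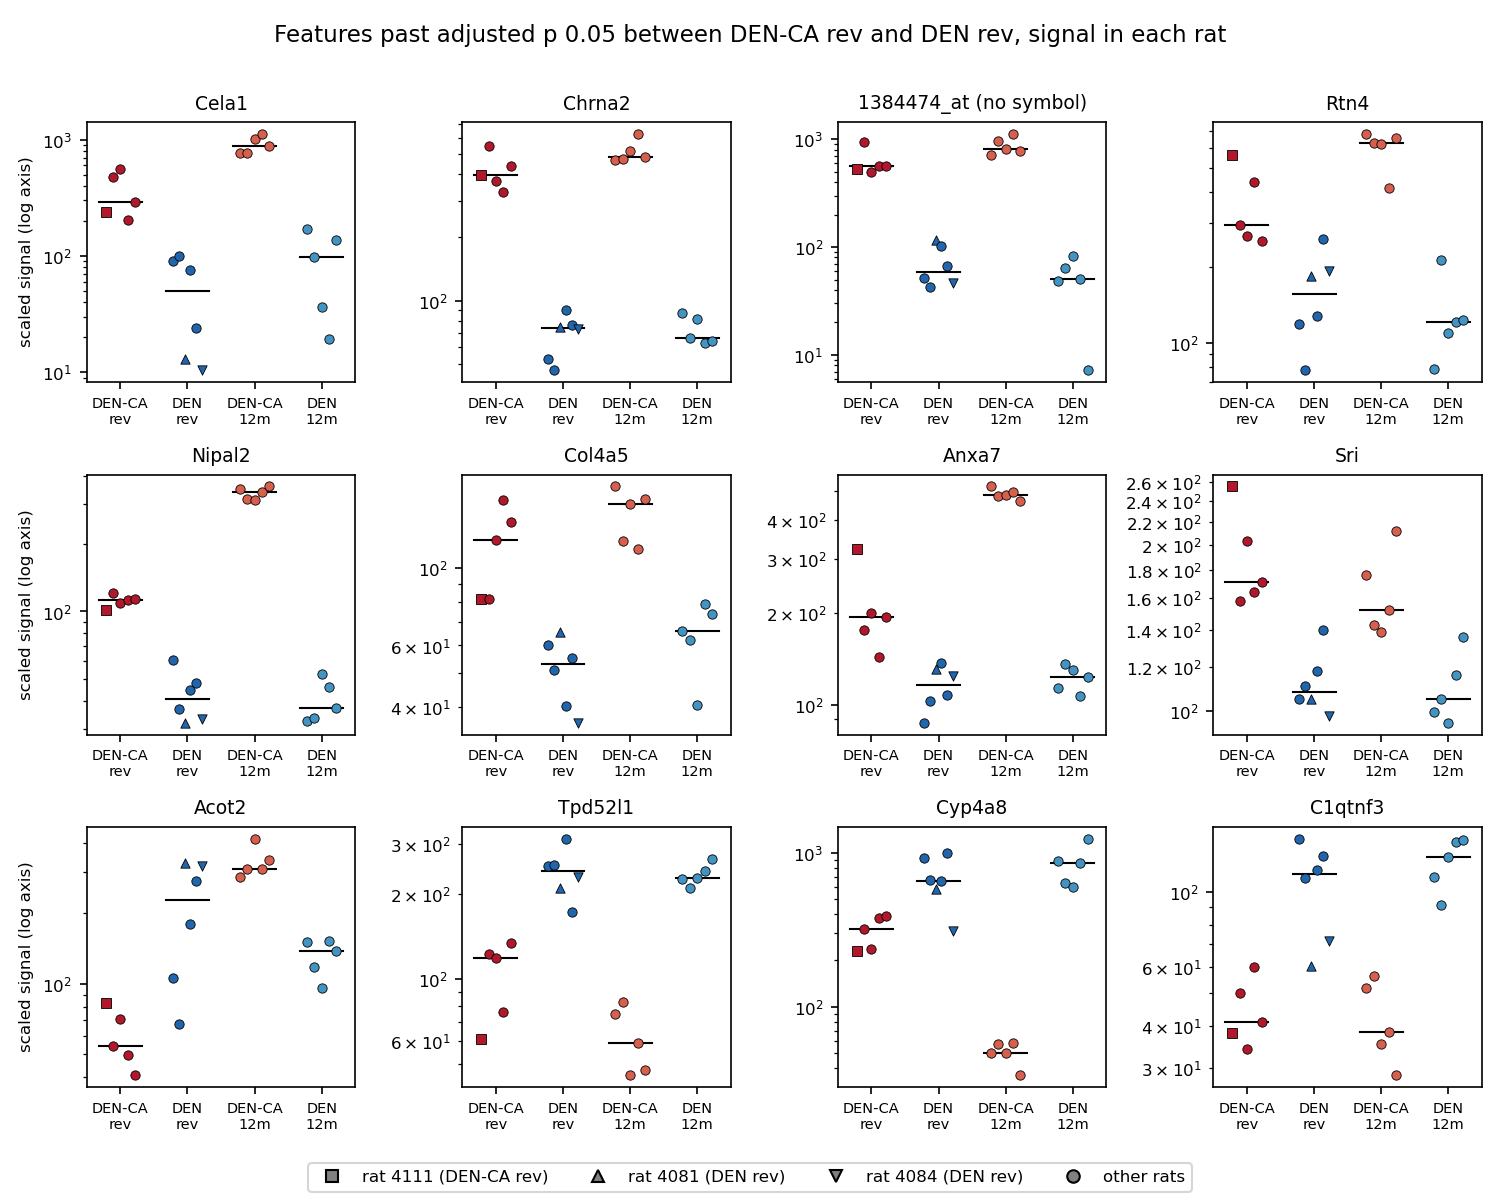
Scaled signal of each rat, on log axes, for the 11 genes and for a probe set without a gene symbol that differed between DEN-CA rev and DEN rev. Panels place DEN-CA rev left of DEN rev and DEN-CA 12m left of DEN 12m. Points are rats, with rats 4111, 4081 and 4084 marked, and bars are medians. The 5 DEN-CA rev rats lie above all 6 DEN rev rats for Cela1 (204 to 556 against 10.4 to 99) and for Chrna2 (328 to 548 against 46.5 to 89.7).

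Among the called genes, those with the largest differences were higher in DEN-CA rev. Cela1 encodes chymotrypsin-like elastase 1, a serine protease best known from the exocrine pancreas. Its signals were 238, 476, 556, 204 and 289 in the DEN-CA rev rats, against a lowest of 10.4, a median of 50.2 and a highest of 99 in DEN rev. The groups did not overlap, and the lowest DEN rev values, 10.4 and 13.1, were those of rats 4084 and 4081. Cela1 was 5.22-fold higher (log2 2.38 ± 0.31 SE, limma adjusted p = 1.92e-08), and without rats 4081 and 4084 the difference was 1.94 (adjusted p = 1.36e-04). DEN-CA 12m rats had 768 to 1120, against 19.2 to 169 in DEN 12m rats.

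Cela1 is also among the pancreatic acinar markers, of which the array holds 12. Their summed signal was 467 to 822 in DEN-CA rev, against 262 to 468 in DEN rev, but that of the 11 without Cela1 was 199 to 266 in DEN-CA rev, against 236 to 412 in DEN rev. Of the 6 tested members Cela1 alone was called, and the other 5 had adjusted p-values of 1 in this comparison. Prss1, the trypsinogen gene, differed by 0.02 ± 0.19 and Cpb1, a carboxypeptidase, by -0.31 ± 0.15 (log2, SE).

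Rat 4111 had 2 further sections, tagged TU and TUMI, which stayed out of the fit. Cela1 gave 1590 in the TU section and 993 in the TUMI section, against 238 in the untagged section. In the TU section the other 11 acinar markers were high too, such as Prss1 (4050 against 28.8 in the untagged section), Cpb1 (2910 against 58.8) and the amylase gene Amy2a3 (3440 against 6.15). In the TUMI section Prss1 gave 56.9, Cpb1 75.5 and Amy2a3 15, far below the TU section. The source of the acinar marker RNA in the TU section was not tested.

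Sequences upstream of a called gene that was higher and of a called gene that was lower are shown because the six-base half-site AGGTCA is the core element that PPARalpha and RXR bind, as a pair spaced by a single base. The windows run from 250 bases before to 50 after the RefSeq gene start on GRCr8, and capitals mark AGGTCA where it was found. Cela1 lies on the minus strand at chr7:133665012-133665311, and Cyp4a8, a fatty acid hydroxylase gene described below, on the minus strand at chr5:133970177-133970476.
Cela1: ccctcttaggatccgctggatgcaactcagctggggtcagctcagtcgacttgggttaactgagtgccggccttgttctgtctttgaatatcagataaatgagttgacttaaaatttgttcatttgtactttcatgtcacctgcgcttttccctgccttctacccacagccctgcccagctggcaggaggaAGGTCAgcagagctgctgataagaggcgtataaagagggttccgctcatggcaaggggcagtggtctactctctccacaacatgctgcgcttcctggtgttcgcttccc
Cyp4a8: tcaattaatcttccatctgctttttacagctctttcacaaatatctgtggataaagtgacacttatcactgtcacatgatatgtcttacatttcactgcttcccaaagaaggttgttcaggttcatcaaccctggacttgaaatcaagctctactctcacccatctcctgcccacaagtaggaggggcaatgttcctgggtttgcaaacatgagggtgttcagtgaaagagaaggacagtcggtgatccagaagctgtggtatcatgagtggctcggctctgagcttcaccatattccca
The Cela1 window held 1 match, with its first base at position -59 from the start, and the Cyp4a8 window held none, with both strands searched. AGGTCA was found in 5415 of 33469 rat promoter windows (16.2%), and the paired element AGGTCANAGGTCA in 18 (0.0538%). The table held windows for 8 of the 11 called genes, and 1 of these 8 had AGGTCA. A match is a string of letters and was not tested as a binding site.

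Chrna2 encodes the alpha 2 subunit of the neuronal nicotinic acetylcholine receptor. Its signals were 396, 548, 371, 328 and 438 in DEN-CA rev, against a lowest of 46.5, a median of 74.1 and a highest of 89.7 in DEN rev. All DEN-CA rev rats lay above all DEN rev rats, and the difference of 4.69-fold (log2 2.23 ± 0.30 SE, limma adjusted p = 4.74e-08) was 2.28 without rats 4081 and 4084 (adjusted p = 2.51e-06). The DEN-CA 12m rats had 470 to 625, against 62.9 to 87.1 in DEN 12m rats, a log2 difference of 2.47, and the 2 differences were not separated by the test of their difference (-0.24 ± 0.43 SE, adjusted p = 0.886).

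The probe set 1384474_at, which has no gene symbol in the annotation used, had the largest fold of the called probe sets. It gave 529, 937, 491, 566 and 561 in DEN-CA rev, and 42.2 to 117 in DEN rev with no overlap. It was 6.78-fold higher (log2 2.76 ± 0.34 SE, limma adjusted p = 6.58e-09), against 3.67 in the untagged pair. Without rats 4081 and 4084 the log2 difference was 2.83 (limma adjusted p = 1.91e-07).

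Nipal2 belongs to a family of membrane proteins related to magnesium transporters. The 5 DEN-CA rev rats had 102, 121, 109, 112 and 114, against a lowest of 32.1, a median of 41 and a highest of 61.2 in DEN rev. The groups did not overlap and the DEN-CA rev rats were close to each other, with a mean of 111.5 ± 6.78 against 42.86 ± 11.03 in DEN rev (SD, n = 5 and 6). The difference was 1.02 ± 0.13 (SE, limma adjusted p = 1.92e-08), and 0.91 without rats 4081 and 4084 (adjusted p = 2.75e-05). In DEN-CA 12m the range was 312 to 359, against 32.5 to 52.8 in DEN 12m, and the Nipal2 difference of the rev pair was smaller by the test of the difference (-1.44 ± 0.19 SE, adjusted p = 8.79e-09).

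Col4a5 encodes a type IV collagen chain of basement membranes. Its signals were 81.5, 81.5, 120, 156 and 135 in DEN-CA rev, against a lowest of 36.1, a median of 53.1 and a highest of 65.5 in DEN rev. The groups did not overlap, and the difference of 0.85 ± 0.15 (SE, limma adjusted p = 1.13e-04) was 0.84 without rats 4081 and 4084. The untagged pair differed by 0.91, with 113 to 171 in DEN-CA 12m against 40.6 to 78.6 in DEN 12m.

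Rtn4, Anxa7 and Sri were also higher, and in each the highest DEN-CA rev signal was that of rat 4111. Rtn4 encodes reticulon 4, which shapes the endoplasmic reticulum. Its signals were 563, 294, 266, 440 and 254 in DEN-CA rev and 77.7 to 259 in DEN rev, where rat 4083 at 259 lay above the lowest DEN-CA rev rat. The difference was 1.08 ± 0.25 (SE, limma adjusted p = 0.0268), and a second Rtn4 probe set gave 0.69 (adjusted p = 0.681).

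Anxa7 encodes annexin A7, a calcium-dependent membrane-binding protein. DEN-CA rev rats had 323, 175, 200, 143 and 194, and DEN rev rats 87.6 to 137, with no overlap. The difference was 0.70 ± 0.15 (SE, limma adjusted p = 0.00712), while a dimmer Anxa7 probe set gave 0.17 (adjusted p = 1). Sri encodes sorcin, a calcium-binding protein, with 255, 158, 203, 164 and 171 in DEN-CA rev, 98 to 140 in DEN rev, no overlap, and a difference of 0.63 ± 0.14 (SE, limma adjusted p = 0.0229).

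Without rat 4111 the differences were 0.91 for Rtn4 (limma adjusted p = 0.3), 0.54 for Anxa7 (0.254) and 0.53 for Sri (0.288), and none of the 3 was called. Without rats 4081 and 4084 Rtn4 (1.22, limma adjusted p = 0.0262) and Anxa7 (0.76, 0.00992) were called, and Sri (0.57, 0.348) was not. The part of the lymphocyte signal of rat 4111 in these differences was not tested.

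Among the lower genes, Cyp4a8, a member of the family that hydroxylates fatty acids at the end of the chain, gave 229, 320, 237, 375 and 391 in DEN-CA rev. DEN rev rats had a lowest of 312, a median of 657 and a highest of 1000. The groups overlapped through rat 4084 at 312 alone, and the difference of -1.04 ± 0.20 (SE, limma adjusted p = 0.002) was -1.32 without rats 4081 and 4084 (adjusted p = 3.14e-05). A second Cyp4a8 probe set gave -0.89 (adjusted p = 0.088), and it was called without those rats (adjusted p = 0.0136).

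Cyp4a8 was much lower in the untagged pair, at 36 to 58.5 in DEN-CA 12m against 600 to 1230 in DEN 12m, and its rev difference was smaller in size by the test of the difference (2.45 ± 0.29 SE, adjusted p = 2.26e-10). The TU and TUMI sections of rat 4111 had Cyp4a8 signals of 35 and 77.5, against 229 in its untagged section. The 4 control rev 12m rats averaged 1179 ± 218 (SD).

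Tpd52l1, a member of the tumour protein D52 family, had 60.9, 122, 118, 76.5 and 134 in DEN-CA rev, against a lowest of 172, a median of 241 and a highest of 313 in DEN rev. The groups did not overlap, and the difference was -1.07 ± 0.19 (SE, limma adjusted p = 1.34e-04), -1.11 without rats 4081 and 4084, and -1.59 in the untagged pair. C1qtnf3, which encodes a secreted protein related to C1q and tumour necrosis factor, had 38.1, 50, 34.2, 59.8 and 40.9 in DEN-CA rev and 60.3 to 144 in DEN rev. The C1qtnf3 groups were separated by a narrow gap, between 59.8 and 60.3, and the difference of -0.87 ± 0.20 (SE, limma adjusted p = 0.025) was -1.11 without rats 4081 and 4084 (0.00184) but was not called without rat 4111 (-0.84, adjusted p = 0.107).

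Acot2 alone among the 11 genes differed in the direction opposite to the untagged pair. It encodes a mitochondrial acyl-CoA thioesterase and is a known PPARalpha target. Its signals were 83, 54.3, 71, 49.9 and 40.8 in DEN-CA rev, against a lowest of 67.2, a median of 228 and a highest of 329 in DEN rev. The groups overlapped, and rats 4081 and 4084, at 329 and 319, were the highest. The difference was -1.35 ± 0.28 (SE, limma adjusted p = 0.0049), but without those 2 rats it was -0.99 ± 0.30 and not called (adjusted p = 0.606).

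In the untagged pair Acot2 was higher, at 285 to 416 in DEN-CA 12m against 95.8 to 153 in DEN 12m (1.19). Control rev 12m rats averaged 106.7 ± 34.3 (SD, n = 4). The probe set 1388211_s_at, whose annotation lists Acot1 with Acot2, differed by -1.25 (adjusted p = 0.0257), and without rats 4081 and 4084 it was -1.02 and not called (0.654).

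The remaining called probe sets were 1393285_at, without a symbol (-0.80, limma adjusted p = 0.00925), and 1370350_x_at of Rup2 (1.57, adjusted p = 0.0142), a urinary protein gene with near-identical relatives. The other 3 Rup2 probe sets, which are far brighter, differed by -0.10 to 0.08, so the Rup2 result is uncertain. Without rats 4081 and 4084 the differences were -0.77 (limma adjusted p = 0.0992) and 1.26 (0.606), neither of them called. Without rat 4111 1393285_at differed by -0.70 and was not called (0.117), while the Rup2 probe set was (1.96, adjusted p = 3.73e-04).

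Of the 11 called genes, 8 showed no overlap between the groups, against 21 genes (0.24%) wholly above and 12 (0.137%) wholly below among all genes. The genes were called on these same signals, so this share follows in part from the choice and is no further support. Each of the 11 was also called in the untagged pair, where 7.44% of all genes were called, and which shares no animals with the rev pair: 10 in the same direction and Acot2 in the opposite one. Seen from the untagged pair, which had 312 higher genes (3.57% of those tested) and 338 lower genes (3.87%), 8 of the higher (2.56% of them, 7 higher again and Acot2 lower) and 3 of the lower (0.888%) were called in the rev pair, against 0.126% of all genes. The median rev difference of those 312 genes was 0.05, against a median of 0.67 in the untagged pair, and for the 338 lower genes 0.02 against -0.66. These genes were chosen by their call in the untagged pair, which tends to enlarge the untagged medians.

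The called genes were chosen by their rev difference, and the shares that follow are with all rats. Relative to the untagged pair, the log2 difference of the rev pair was 93.4% for Col4a5, 90.5% for Chrna2, 76% for C1qtnf3, 74.6% for Cela1, 67.2% for Tpd52l1 and 52.5% for Rtn4. It was 132% for Sri. It was 41.5% for Nipal2, 38.7% for Anxa7 and 29.8% for Cyp4a8, and these 3 were the genes among the 10 of like direction for which the test of the difference was passed. For Acot2 the test was also passed (-2.54, limma adjusted p = 1.99e-06). For the other 7 genes the test was not passed, which does not show that the differences were equal.

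Most classical targets of the drug were not called in the rev pair. Hdc, histidine decarboxylase, gave 38.6 to 147 in DEN-CA rev and 58.9 to 115 in DEN rev, where the untagged pair gave 912 to 1340 in DEN-CA 12m and 33.3 to 168 in DEN 12m. Acot1, a cytosolic acyl-CoA thioesterase, gave 1.8 to 17.8 in DEN-CA rev and 10.4 to 70.1 in DEN rev, against 251 to 397 in DEN-CA 12m and 4.84 to 20.9 in DEN 12m. Apoa4, an apolipoprotein, ran the other way in the untagged pair, with 215 to 355 in DEN-CA 12m and 4880 to 7400 in DEN 12m, and the rev groups had 2660 to 5180 in DEN-CA rev and 2400 to 4940 in DEN rev. The rev ranges overlapped for all 3 genes, and none was called.

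The peroxisomal bifunctional enzyme gene Ehhadh gave 1850 to 3120 in DEN-CA rev and 2250 to 4400 in DEN rev. Cyp4a1, a fatty acid hydroxylase induced by fibrates, gave 2560 to 3610 in DEN-CA rev and 2440 to 5030 in DEN rev. Their log2 differences were -0.18 ± 0.21 and -0.18 ± 0.18 (SE), against 1.71 and 1.21 in the untagged pair, and the change between the pairs passed the test for Ehhadh (-1.89, limma adjusted p = 4.15e-06) and for Cyp4a1 (-1.39, adjusted p = 1.60e-04).

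A few targets lay between these extremes. Scd2, a stearoyl-CoA desaturase that makes monounsaturated fatty acids, gave 68 to 170 in DEN-CA rev and 26.6 to 58.2 in DEN rev, without overlap, but the difference of 1.11 ± 0.31 (SE) missed the threshold (limma adjusted p = 0.259). Cpt1b, the muscle-type carnitine palmitoyltransferase of fatty acid import into mitochondria, gave 119 to 316 in DEN-CA rev and 65.8 to 119 in DEN rev (0.77 ± 0.20 SE, limma adjusted p = 0.0962), and these groups did not overlap before rounding. In the untagged pair the Scd2 signal was 1090 to 1940 in DEN-CA 12m and 25.6 to 57.4 in DEN 12m, a difference of 4.62, and Cpt1b gave 398 to 523 in DEN-CA 12m and 68.4 to 144 in DEN 12m. Epcam, an adhesion protein of bile duct and progenitor cells, gave 213 to 280 in DEN-CA rev and 125 to 200 in DEN rev, again without overlap and without a call (0.46 ± 0.13 SE, limma adjusted p = 0.309). Without rats 4081 and 4084 the differences were 1.06 for Scd2 (limma adjusted p = 0.708), 0.67 for Cpt1b (0.725) and 0.32 for Epcam (0.999). For Epcam, rats 4081 and 4084 were the lowest of DEN rev, at 125 and 144.

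**Figure D2:**
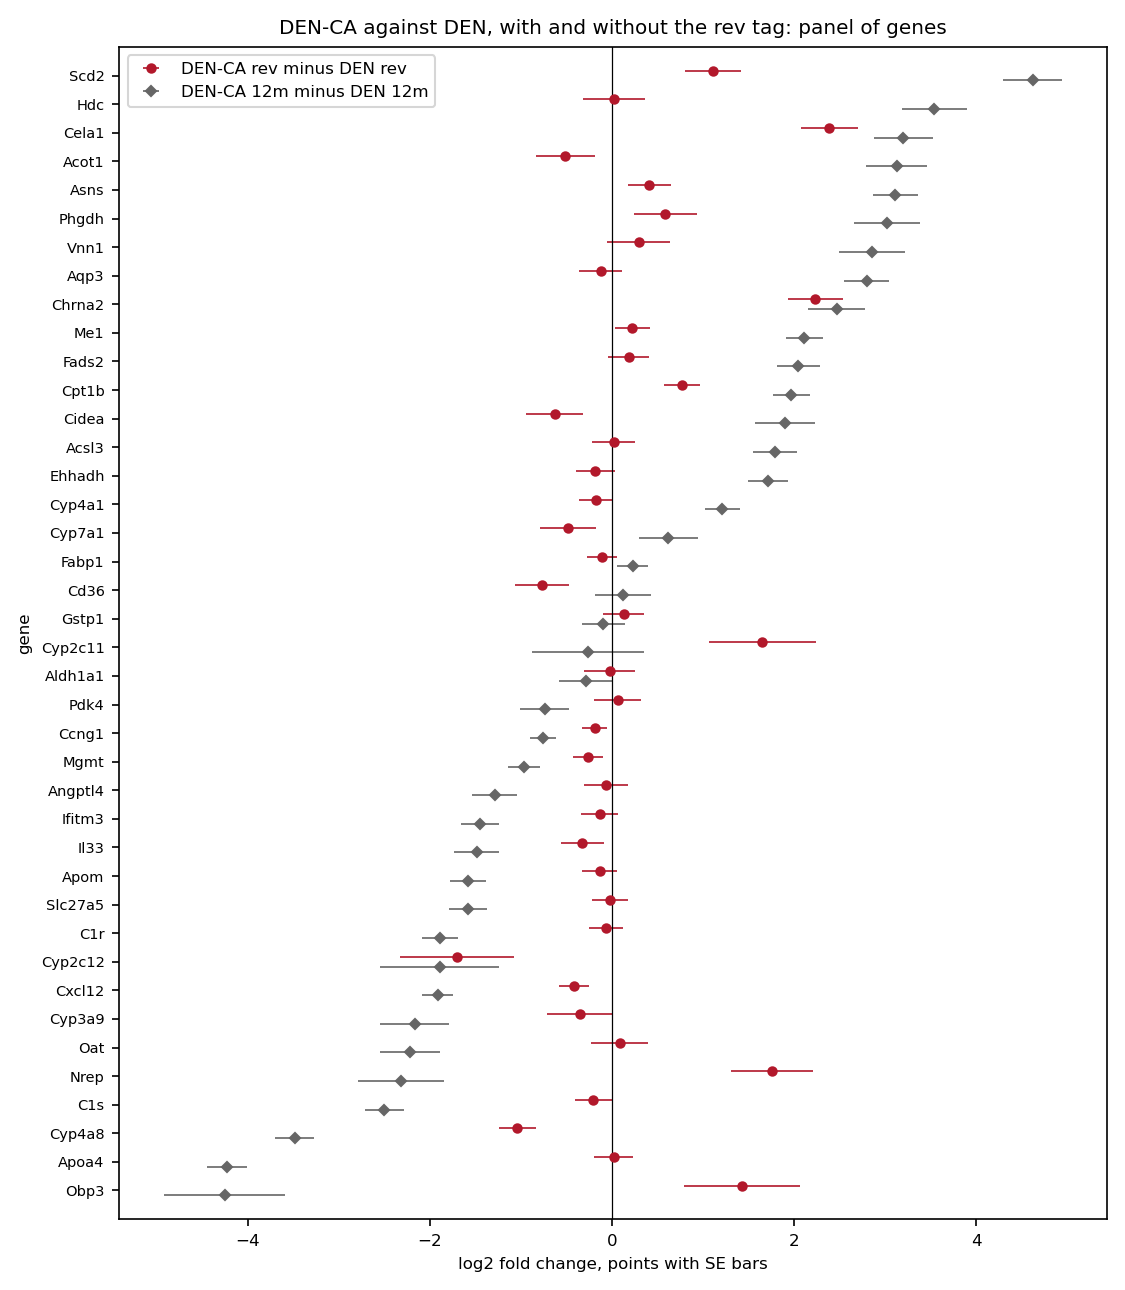
Log2 difference of DEN-CA against DEN with the rev tag and without it, for a panel of 40 tested genes that holds classical targets and genes known from these arrays to respond to CA, with bars for 1 standard error. Of the 32 panel genes called without the tag, Cela1, Chrna2 and Cyp4a8 were called with it, and 22 lie within 0.5 of 0 with it.

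In the panel of 40 genes, many of which were chosen on these same arrays, 32 were called in the untagged pair and 3 in the rev pair: Cela1, Chrna2 and Cyp4a8. The same number was called without rats 4081 and 4084. Over the 32 genes the median size of the log2 difference was 0.25 in the rev pair, against 2.14 in the untagged pair, and for 22 of them the rev difference was below 0.5 in size. Taking the 32 by their call in the untagged pair tends to enlarge its median. The 2 pairs differed by the test of the difference for 28 of the 40 genes, against 2.43% of all genes. Choosing genes for a CA response on these arrays favours such a difference, so this share is no further support.

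Over all probe sets, the rev and untagged differences were unequal for 285 (2.3%), 165 with a higher (1.33%) and 120 with a lower (0.968%) rev difference, and for 244 without rats 4081 and 4084. Among genes, each at its brightest probe set, the most negative called differences were those of Acot1 (-3.64), Hdc (-3.52), Scd2 (-3.51), the water and glycerol channel Aqp3 (-2.92), the serpin Serpinb9b (-2.90), asparagine synthetase Asns (-2.70), the zinc finger gene Zfp354a (-2.66) and the orphan receptor Nr0b2 (-2.62). The most positive were those of the lipocalin gene Obp3 (5.68), Apoa4 (4.24), Nrep (4.07), the cytokine signalling inhibitors Cish (3.86) and Socs2 (2.87), the mitochondrial carrier Slc25a30 (2.70), the steroid dehydrogenase Hsd17b2 (2.58) and Cyp4a8 (2.45). Among these 16 genes Cyp4a8 alone was called in the rev pair. Their order is that with all rats. The rev difference of Obp3 was 1.43 with all rats and -0.69 without rats 4081 and 4084. That of Nrep was 1.76 and 1.01, and that of Cish moved the other way, from 1.53 to 2.01. A further 2 probe sets called in the rev pair had differences of like size, 1370350_x_at of Rup2 (2.93) and 1388211_s_at (-2.80).

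By pathway the rev pair showed few calls. By limma, none of 22 mitochondrial fatty acid oxidation genes was called (2 higher and 2 lower at an unadjusted p below 0.05), where the untagged pair had 6 higher and 1 lower. None of 22 peroxisomal genes was called (1 higher and 2 lower at an unadjusted p below 0.05), where the untagged pair had 2 higher. At that unadjusted level 2.55% of all genes were higher and 1.97% lower in the rev pair. Over all genes, 3.57% were called higher and 3.87% lower in the untagged pair. Of 33 genes listed as other PPARalpha targets, Chrna2 was called, with a list median of 0.00 against 0.02 over all genes. In the untagged pair 14 of the 33 were higher and 2 lower. Several of the 33, Chrna2, Hdc, Vnn1 and Aqp3 among them, were also named from these same arrays as responding to CA. The counts for this list therefore follow in part from the choice, and whether Chrna2 is a direct target was not tested. In this list the test of the difference found 10 genes lower and 1 higher in the rev pair than in the untagged pair, where 1.04% of all genes were lower and 1.38% higher. Of 10 Cyp4a and Cyp4f hydroxylases and acyl-CoA thioesterases, Cyp4a8 and Acot2 were lower, against 0.0458% of all genes. In the untagged pair 3 of the 10 were higher and 1 lower, against 3.57% and 3.87% of all genes, and in the rev pair Cyp4a8 alone was called without rats 4081 and 4084. Cd36, the fatty acid uptake receptor, gave 577 to 802 in DEN-CA rev and 440 to 3380 in DEN rev, and its difference of -0.77 was -0.05 without those rats.

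No call was made among 20 lipogenesis genes, 19 genes of the amino acid response and serine synthesis, 16 apolipoprotein and lipoprotein genes or 22 coagulation and complement genes, and at an unadjusted p below 0.05 limma gave 1 gene in all, Scd2. The untagged pair had 7 higher, 10 higher, 6 lower and 8 lower genes in these lists, against 3.57% higher and 3.87% lower over all genes. Among 32 cell cycle genes none was called by limma in the rev pair, and 3 were higher at an unadjusted p below 0.05, a level at which 2.55% of all genes were higher and 1.97% lower. The cell cycle median was 0.20 with all rats and -0.03 without rat 4111, where 1 of the 30 genes tested was higher at that level, so the positive median rested on rat 4111. Among 27 liver tumour markers none was called by limma, and 4 were higher and 2 lower at an unadjusted p below 0.05, with a median of 0.09. Without rat 4111 1 tumour marker was higher and 2 lower and the median was 0.00, and without rats 4081 and 4084 2 were higher and 0 lower. Lmnb1, a nuclear lamin, gave 185 to 334 in DEN-CA rev and 131 to 199 in DEN rev (0.45 ± 0.13 SE, limma adjusted p = 0.309). Gjb2, the gap junction protein connexin 26, gave 304 to 631 in DEN-CA rev and 494 to 1390 in DEN rev (-0.68 ± 0.20 SE, limma adjusted p = 0.333). The Gjb2 values of rats 4084 and 4081, 1390 and 1030, were the highest, and without them the difference was -0.41. Gstp1, the placental glutathione transferase that marks altered liver foci in rats, differed by 0.13 (adjusted p = 1), with rat 4111 the highest at 762.

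Sex-dependent liver genes set rats 4081 and 4084 apart. In the rat, the pulsed growth hormone pattern of males keeps up Cyp2c11, Cyp2c13 and Obp3, and the steadier pattern of females keeps up Cyp2c12, A1bg and the prolactin receptor Prlr. Cyp2c12 gave 7390 and 7480 in rats 4081 and 4084, against 132 to 192 in the other DEN rev rats and 113 to 261 in DEN-CA rev. Cyp2c13 gave 73.4 and 254 in these 2 rats, against 5110 to 6950 in the other DEN rev rats. A1bg, a plasma glycoprotein gene, gave 5690 and 4580, against 5.25 to 52.6.

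Both rats lay on the same side of the other 4 for most of the list: of 35 such genes, both were below the other 4 DEN rev rats in 14 and above them in 16. The rats were singled out for Obp3, and the same counts were not made over all genes, so these values are a description. The labels give no sex, and whether these 2 arrays are labelled correctly was not tested. No gene of the list was called in the rev pair with all rats, where an unadjusted p below 0.05 was found for 13 higher and 8 lower genes, against 4.52% of all genes in either direction. Without these 2 rats 2 of the 35 genes were at that level, both higher, where 2.99% of all genes were higher and 1.44% lower. They were Cish at 2.01 (limma adjusted p = 0.767) and Socs2 at 1.57 (adjusted p = 0.999). Both inhibit growth hormone receptor signalling. With all rats, Cish gave 38.8 to 538 in DEN-CA rev and 23.4 to 206 in DEN rev, and Socs2 gave 267 to 510 in DEN-CA rev and 39.1 to 480 in DEN rev, with overlap in each. Cyp2c12 was also high in rats without DEN at 18 months, with 4950 to 6820 in CA rev 18m and 1190 to 10200 in control rev 18m. The 10200 was control rat 4046, whose A1bg signal was 5520, against 30 and 62.6 in the other controls. In DEN 12m, Cyp2c12 gave 2750 in rat 4077, against 156 to 643 in the rest of that group, while A1bg gave 85.3 in rat 4077.

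**Figure D3:**
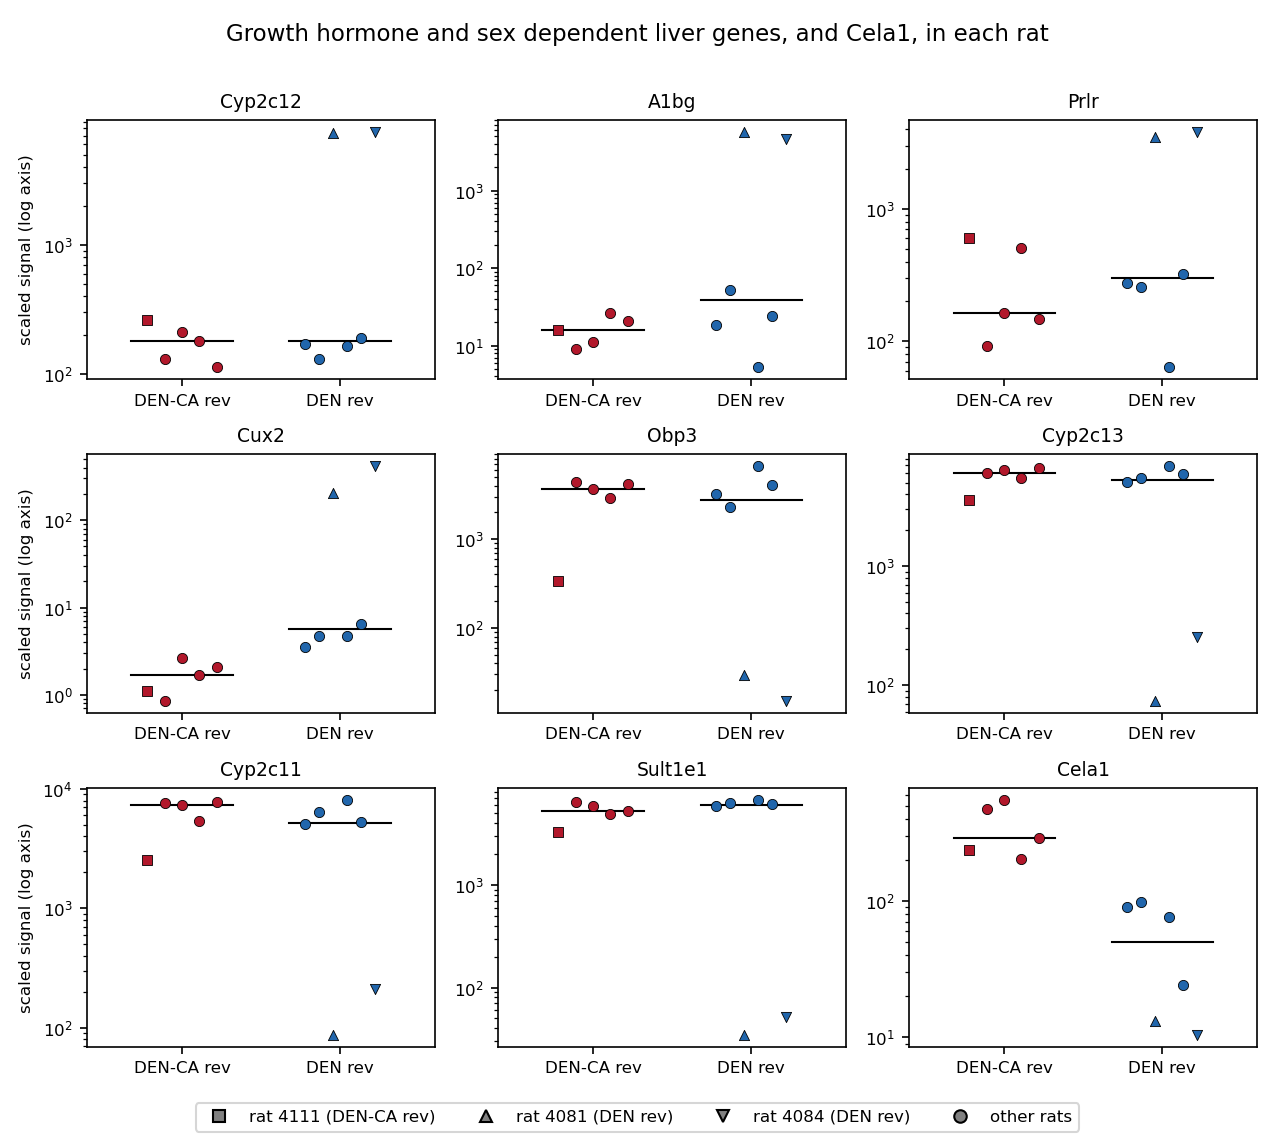
Scaled signal on log axes of 8 liver genes that depend on growth hormone pattern or sex, and of Cela1, in each DEN-CA rev rat (left) and DEN rev rat (right), with medians as bars. Rats 4081 and 4084 are marked and lie far from the other 4 DEN rev rats in the 8 genes, for example at 7390 and 7480 against 132 to 192 for Cyp2c12, while in Cela1 they are the lowest of a group that lies wholly below DEN-CA rev.

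**Figure D4:**
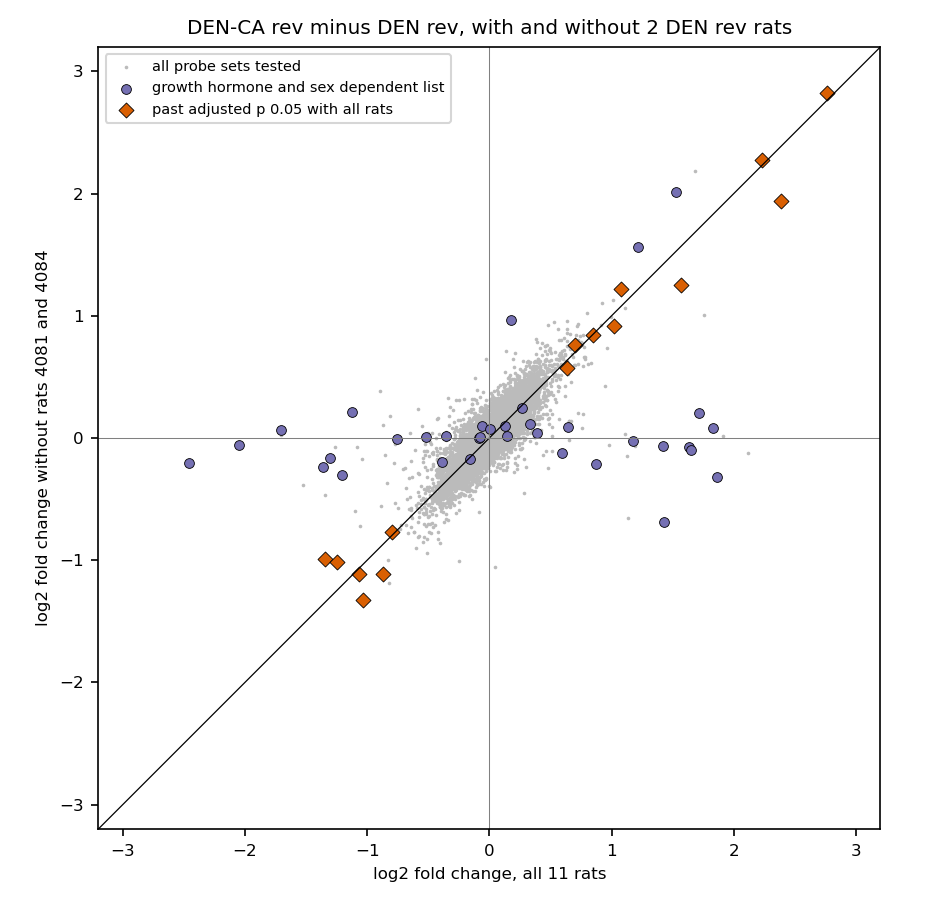
Log2 difference of DEN-CA rev and DEN rev for each tested probe set, with all 11 rats on the horizontal axis and without rats 4081 and 4084 on the vertical axis. The diagonal marks equal values. The 15 called probe sets keep their direction, and 10 of them were still called without these rats. Their shifts vary, as in Nipal2 (1.02 and 0.91), Cela1 (2.38 and 1.94), Acot2 (-1.35 and -0.99) and Cyp4a8 (-1.04 and -1.32). Many of the growth hormone and sex dependent genes move towards 0 on the vertical axis.

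Rat 4111 stood apart in lymphocyte genes. Gzmb, the granzyme B gene of cytotoxic cells, gave 1270 in this rat, against 64.3 to 142 in the other 4 DEN-CA rev rats. Cd3e, a chain of the T cell receptor complex, gave 17.1 in rat 4111, the lowest of its group, against 27.8 to 40.4 in the other 4. Rat 4111 was the highest of its group in 16 of the 19 lymphocyte markers that were tested. Its summed macrophage and Kupffer cell markers were 17100, against 9510 to 12400 in the other DEN-CA rev rats and 8710 to 13400 in DEN rev. Its summed signal of 11 hepatocyte markers was 65900, against 95200 to 111000 in the other 4 DEN-CA rev rats and 89400 to 113000 in DEN rev. Beside that lower hepatocyte sum, it was the lowest of its group in 24 of the 35 growth hormone and sex dependent genes. Scaling multiplied its array by 0.5306, against 0.7178 to 1.094 for the other arrays of both groups, which lowers its signals relative to theirs. The part of this scaling in its low values was not tested, and neither rank count was made over all genes. None of the lymphocyte genes was called between the groups by limma, and 1 was higher at an unadjusted p below 0.05. At that level 2.55% of all genes were higher.

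Rats with the rev tag but no DEN offered a further set of animals. Between CA rev 18m and control rev 18m 91 probe sets were called (0.734%), 19 higher (0.153%) and 72 lower (0.581%), but without control rat 4043, whose lymphocyte marker sum was 26900 against 2890 and 6160 in the other controls and 2180 to 3870 in CA rev 18m, 7 were called (638 at an unadjusted p below 0.05). Of the 11 genes, Nipal2, Chrna2, Tpd52l1 and Cyp4a8 were called in the direction seen after DEN, which is 4 of 11, against 0.846% of all genes.

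Nipal2 gave 74.1 to 131 in CA rev 18m and 29.6 to 55.2 in control rev 18m (1.06 ± 0.17 SE, limma adjusted p = 2.89e-05). Chrna2 gave 134 to 323 in CA rev 18m and 29.5 to 75.4 in control rev 18m (1.64 ± 0.38 SE, limma adjusted p = 0.0103). Tpd52l1 gave 59.9 to 108 in CA rev 18m and 108 to 356 in control rev 18m (-1.15 ± 0.23 SE, adjusted p = 0.00354). Nipal2 and Chrna2 did not overlap between the groups and Tpd52l1 met at 108.

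Cyp4a8 gave 266 to 343 in CA rev 18m and 472 to 1330 in control rev 18m, without overlap (-1.22 ± 0.26 SE, limma adjusted p = 0.00444). Without control rat 4043, Nipal2 (adjusted p = 0.00188), Tpd52l1 (1.25e-04) and Cyp4a8 (0.0196) were still called, Chrna2 was not (1.45, adjusted p = 0.411), and Rtn4 was called (1.66, adjusted p = 0.00976). The unnamed 1384474_at differed by 2.80 (limma adjusted p = 2.32e-05).

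The CA differences of rev-tagged rats with and without DEN were themselves unequal for 60 probe sets (0.484%), but for 7 without rat 4111 and for 0 without control rat 4043 by limma, where 535 had an unadjusted p below 0.05. In this contrast DEN and the time label, 12 against 18m, change together and cannot be told apart. Of the 11 genes, Cela1 and Sri were among the features called, against 0.549% of all genes. Cela1 gave 217 to 291 in CA rev 18m and 74.1, 94.3 and 648 in control rev 18m, where 648 was rat 4043. Its difference between the settings was 1.95 ± 0.50 (SE, limma adjusted p = 0.0386), and it was not called without rats 4081 and 4084 (1.51, adjusted p = 0.178), without rat 4111 (2.05, 0.0873) or without rat 4043 (1.07, 0.999). Sri in rat 4043 was 544, and its difference of 1.28 (adjusted p = 0.00103) was 0.73 without that rat and not called (0.877). For Nipal2 the difference between the settings was -0.03 ± 0.21 (SE, adjusted p = 0.983).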

How the data were processed

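The deposited values are array intensities of liver RNA made by the authors with MAS5, per the submitters' processing notes, which give no version. The array platform's probe sets were named from the annotation supplied with the files, and 12783 of 15922 probe sets had 1 gene. Each array was scaled to a median of 99.35, 25 was added and log2 taken. Probe sets above the 40th percentile of their array on at least 3 arrays were kept (12393, for 8742 genes, each gene by its brightest probe set). One limma fit (version 3.58.1, R 4.3.3) on 148 untagged arrays in 30 groups, with a variance trend and 118 residual degrees of freedom, gave every comparison, with Benjamini-Hochberg adjustment over all probe sets and a threshold of 0.05. It was tested on simulated data. The number of arrays limits the precision. Named genes were those called in the rev pair, the 8 most positive and 8 most negative among those called in the difference between the rev and untagged pairs and in CA rev 18m against control rev 18m, up to 4 genes of each list, and a panel of 42 genes (40 tested). The members and lists were chosen with earlier results of these data known. Alternatives covered scaling, offset, filter, samples, array weights, repeats and left-out rats. Leaving out rats 4081, 4084 and 4111 together was chosen after seeing the data. TU and PERI sections stayed out of the fit.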

Additional observations from a re-analysis of the deposited data

Results flagged for a closer look

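Of 104 sets of signals examined for a rat far from its group, 11 had one, where chance gives about 1 in 20. In DEN-CA rev, rat 4111 was the lowest for Rup2 1370350_x_at (877, next 3040), Apoa4 (2660, next 4310), Slc27a5, a bile acid ligase (3520, next 6000), Obp3 (334, next 2900) and Fabp1, the liver fatty acid binding protein (7410, next 10700). It was the highest for 1388211_s_at (90.7, next 48.6) and Gstp1 (762, next 385). The array of rat 4111 was scaled down the most of the DEN-CA rev and DEN rev arrays (factor 0.5306). The part of this in its low values was not tested. Rat 4112 was the highest for 1384474_at (937, next 566) and Aqp3 (21.1, next 3.66). In DEN rev, rat 4083 was the highest for Acot1 (70.1, next 23) and the lowest for Apoa4 (2400, next 4230).

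Of the called probe sets, 6 had unequal log2 differences in the rev and untagged pairs: Anxa7 (-1.10), Cyp4a8 (2.45), Rup2 (2.93), Acot2 (-2.54), 1388211_s_at (-2.80) and Nipal2 (-1.44), each by limma's test of the difference. In the panel, many genes of which were chosen on these same arrays, this held for 28 of 40 genes. Between rats with DEN and time label 12 and rats without DEN at 18m, Sri (1.28) and Cela1 (1.95) had unequal CA differences, and neither was called without control rat 4043.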

How the results depend on the processing

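No paired analysis was possible because the rat numbers differ between the groups. The count of called probe sets in the rev pair (15) was 5 without scaling, 5 with a fit of its own groups alone, 34 with array weights, 9 without arrays tagged bis and 8 without rats 4081, 4084 and 4111, and it lay between 11 and 17 with each rat left out. The count for the difference between the rev and untagged pairs (285) was 123 without scaling, 563 with quantile normalization, 823 with array weights and 177 with a 2-fold limit (212 to 359 with single rats left out). For the untagged pair (872) it was 212, 1599 and 210 without scaling, with array weights and with the 2-fold limit (664 to 810). For CA rev 18m against control rev 18m (91) it was 166 with an offset of 99, 2 without scaling, 143 with quantile normalization, 0 by limma with its own groups alone (782 at an unadjusted p below 0.05), 20 with array weights and 52 with the 2-fold limit (7 to 272). For the difference between rats with DEN (12) and without DEN (18m) (60) it was 32 with an offset of 6, 137 with 99, 27 without scaling, 34 with the 70th percentile filter, 0 by limma with its own groups alone (926 at an unadjusted p below 0.05), 6 with array weights and 4 without the 3 rats (0 to 220). Of the 11 genes, Cela1, Chrna2 and Nipal2 were called under all 25 alternatives run, Tpd52l1 under 24, Cyp4a8 under 22, Acot2 and Anxa7 under 20, Rtn4 under 15 and Sri under 13. Col4a5 was called under 21 and C1qtnf3 under 12 of 24, since a filter at the 70th percentile removed them. No gene's direction reversed. The causes were not tested. Detection calls were not used here, so how far a dim signal lies above background is unknown.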

Other observations

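Among rats with the rev tag and no DEN, the genes called lowest in CA rev 18m against control rev 18m were Pnliprp2, a lipase (-2.40), perforin Prf1 (-2.16), Nkg7 (-1.97), Gpr15lg (-1.87), Coro1a (-1.79), Spn (-1.72), Klrb1a (-1.66) and Anxa2 (-1.65). Prf1, Nkg7 and Klrb1a are lymphocyte genes, and Prf1 averaged 143.3 in CA rev 18m and 1447 in control rev 18m. Without control rat 4043 none of these 8 was called by limma, and 2 of them, Pnliprp2 (-0.99) and Anxa2 (-0.75), had an unadjusted p below 0.05.

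The genes called highest were the sulfotransferase Sult2a2 (3.12), Chrna2 (1.64), the desaturase Fads2 (1.08), Nipal2 (1.06), Elapor1 (1.01), the retinoic acid binding protein Crabp1 (1.00), the hepatic lipase Lipc (0.64) and Rpa1 (0.63). Without control rat 4043, Nipal2 alone of these 8 was called (1.02, limma adjusted p = 0.00188). Between DEN-CA rev and DEN rev, Sult2a2 differed by -1.70 (limma adjusted p = 0.543), and by 0.02 without rats 4081 and 4084.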
